A study of Mus musculus with 20 samples.

Results

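The comparison set 5 libraries of jejunal epithelial cells lacking Kdm6a and Kdm6b (DKO) against 3 control libraries, all collected 5 months after the genes were ablated. These 8 of the series' 20 libraries were taken by their labelled time, and every gene of their table was used. The labels give the genotypes as Control/WT and Kdm6a/Kdm6b knockout, the sex as female and the tissue as jejunum, and the series' design text narrows the cells to crypt epithelium after an induced ablation. The other 12 libraries, 5 control and 7 DKO, came from 7 days after ablation and are used below as an independent set beside the 5-month values. The recombinase, its promoter, the inducer and the age of the mice are not in the labels. The labels also do not say which mouse gave each 5-month library, so the p-values measure the spread between libraries.

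Kdm6a and Kdm6b encode the demethylases UTX and JMJD3, which take methyl groups off lysine 27 of histone H3. The trimethylated form of that lysine is written by Polycomb repressive complex 2 and marks silent genes, so the demethylases are known for letting silenced genes be switched on. The jejunal epithelium renews itself from stem cells in the crypts, and its absorptive cells carry the digestive enzymes, transporters and junctions through which nutrients, ions and antibodies pass.

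Library depth ran from 9914738 reads (control 3) to 23181576 reads (control 1), and the DKO libraries held between 12560843 and 20612206 reads. The levels are CPM, reads of a gene scaled to a common library size, and each difference is the DKO mean minus the control mean of log2(CPM + 1), called the log2 fold change and printed beside its standard error (SE). That scale understates the change of genes below a few CPM. All 10 defining epithelial genes were tested. Limma called none of them (1 higher without control 1) and DESeq2 called 2 higher and 1 lower. Their summed level was 11392 to 11697 CPM in the controls and 11831 to 12823 CPM in the DKO libraries. Villus enterocyte genes were abundant in both groups as well, at 46443 to 60500 CPM in the controls and 58174 to 62229 CPM in the DKO libraries, although the design text names crypt cells. The first principal component of the 8 libraries carried 46.8% of the variance and separated the groups, with controls between -25.5 and -17.6 and DKO libraries between 11 and 16. The second carried 15% and was lowest in DKO 3 (-15.9) and control 1 (-14.7) and highest in DKO 1 (13.5).

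The deleted genes themselves come first, and their DKO libraries all lay below the controls. Kdm6a was at 82.6, 70.8 and 75.1 CPM in the controls and at 44.4, 48.1, 49.0, 48.9 and 55.3 CPM in the DKO libraries (log2 fold change -0.62, SE 0.07, adjusted p = 2.39e-04). Kdm6b was at 107, 99.5 and 101 CPM in the controls and at 79.6, 82.9, 75.9, 71.4 and 71.7 CPM in the DKO libraries (log2 fold change -0.42, SE 0.06, adjusted p = 9.10e-04). Transcript from both genes was therefore still counted in the DKO libraries, and a count per gene does not show whether the reads come from the part that was removed.

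Of 13316 genes tested with limma, 1955 (14.7%) passed an adjusted p of 0.05. Of these, 765 were higher in DKO (5.74% of those tested) and 1190 were lower (8.94%). Most of the changes were small. Among the higher genes the median absolute log2 fold change was 0.43, 455 (59.5%) lay under 0.5 and 61 reached 1. Among the lower genes the median was 0.47, 645 (54.2%) lay under 0.5 and 133 reached 1. Libraries of one group agreed closely, with a median SD on the log2 scale of 0.11 over the DKO libraries and 0.12 over the controls. Without control 3, the shallowest library, 367 genes were called higher and 661 lower, and 1002 of these 1028 were among the calls made with all 8 libraries. The 2 groups did not overlap for 2736 genes (20.5%), 8.82% of all tested being higher and 11.7% lower in every DKO library. Among called genes, 682 of the higher and 1113 of the lower did not overlap.

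**Figure D1:**
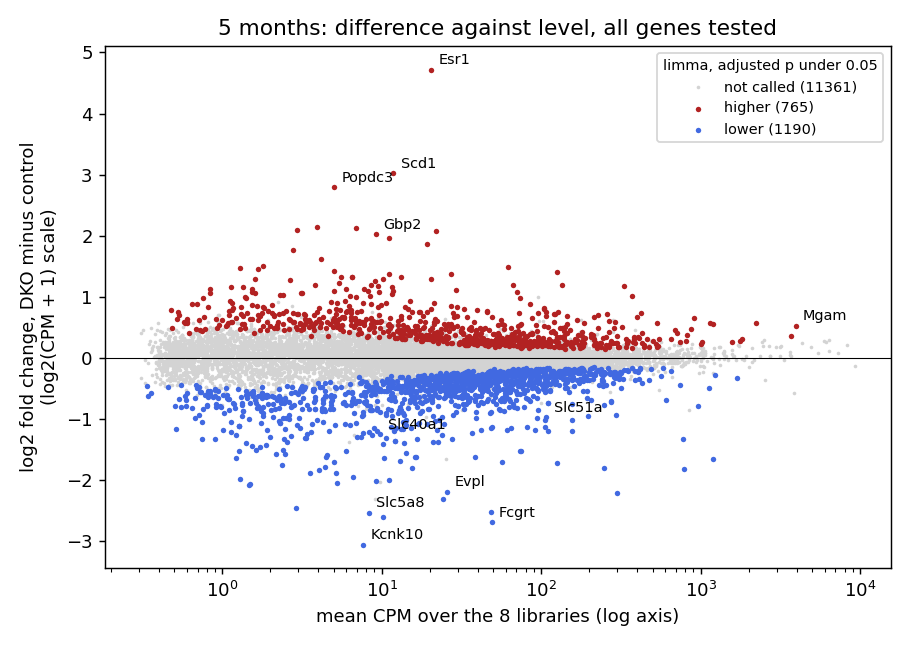
Log2 fold change at 5 months (vertical axis, DKO minus control, log2(CPM + 1) scale) against mean CPM over the 8 libraries (horizontal log axis); each point is 1 of the 13316 genes tested, red where called higher (765) and blue where called lower (1190). Large falls such as Kcnk10 and Fcgrt and large rises such as Scd1 and Popdc3 stand out from a band of small changes, and the highest point is Esr1, which the rule for named genes leaves out.

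Channels, carriers and receptors of the cell surface were among the largest falls. The largest falls and rises were picked among called genes whose groups did not overlap, so their separation is part of the choice. Kcnk10, a tandem-pore potassium channel, was at 19.6, 18.2 and 16.6 CPM in the controls and at 1.35, 1.36, 1.10, 1.41 and 1.32 CPM in the DKO libraries. Its level was 13.9-fold lower in DKO (log2 fold change -3.05, SE 0.11, adjusted p = 2.60e-08), with little spread in either group. Otop3, a proton channel of the otopetrin family, fell from 17.5, 26.7 and 23.1 CPM to 3.26, 2.35, 3.78, 1.6 and 3.49 CPM (log2 fold change -2.60, SE 0.20, adjusted p = 1.72e-05). Slc5a8, which brings short-chain fatty acids and other monocarboxylates into the cell with sodium, was at 16.2, 28.8 and 10.7 CPM in the controls and 1.83, 3.21, 1.65, 2.86 and 1.5 CPM in the DKO libraries (log2 fold change -2.53, SE 0.27, adjusted p = 1.13e-04). The controls of Slc5a8 differed among themselves by more than those of Kcnk10, yet the lowest control stayed above every DKO library. Paqr5, a membrane progesterone receptor, went from 4.27, 2.46 and 4.44 CPM to 0, 0.185, 0.0688, 0.146 and 0.120 CPM, so 1 DKO library had no read of it (log2 fold change -2.07, SE 0.16, adjusted p = 1.82e-05). The receptor tyrosine kinase Ros1 was at 8.84, 11.5 and 11.9 CPM in the controls and 2.79, 1.61, 1.51, 0.970 and 2.71 CPM in the DKO libraries (log2 fold change -2.04, SE 0.21, adjusted p = 8.70e-05).

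Glycerol and water channels and antibody transport belonged to the same tail. The aquaglyceroporin Aqp7 was at 10.4, 30.5 and 15.4 CPM in the controls and 3.90, 2.23, 3.51, 3.64 and 4.39 CPM in the DKO libraries (log2 fold change -2.02, SE 0.27, adjusted p = 5.13e-04). Its relative Aqp3 was at 14.7, 26.9 and 23 CPM and 7.80, 4.88, 4.74, 2.43 and 3.91 CPM (log2 fold change -2.0, SE 0.26, adjusted p = 4.36e-04). In both genes control 2 was the highest of the controls, and no library overlapped between groups. Fcgrt, the heavy chain of the neonatal Fc receptor that carries antibody across the epithelium, was at 120.4, 102 and 92.5 CPM in the controls and 14.6, 15.8, 19.5, 15.2 and 12.5 CPM in the DKO libraries, a 6.76-fold lower mean (log2 fold change -2.69, SE 0.12, adjusted p = 1.80e-07). C4bp, which encodes a complement inhibitor, was at 3.45, 3.61 and 2.82 CPM and 0.0796, 0.185, 0, 0 and 0.180 CPM (log2 fold change -1.98, SE 0.13, adjusted p = 5.70e-06), and 2 DKO libraries had no read. Complement factor I, Cfi, which cleaves complement fragments together with such cofactors, was also lower (log2 fold change -0.89, SE 0.16, adjusted p = 0.00403). The list of antibody transport and complement genes does not hold C4bp. Of its 17 tested genes, Fcgrt and Cfi were lower and none was higher, a share of 2 in 17 near the 8.94% of all genes. With DKO 3 or DKO 5 left out, or in DESeq2, 1 member was higher.

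Of the enzymes in this tail, Mep1a, the alpha subunit of the secreted and membrane metalloprotease meprin, was at 86.0, 122 and 94.5 CPM in the controls and 19.1, 12.2, 20.7, 15.8 and 16.8 CPM in the DKO libraries (log2 fold change -2.51, SE 0.15, adjusted p = 2.26e-06). Aspg, an asparaginase, was at 7.72, 6.65 and 6.46 CPM and 0.398, 0.433, 0.413, 0.485 and 0.481 CPM (log2 fold change -2.46, SE 0.12, adjusted p = 2.34e-07). The DKO values of Aspg were all close together. Gltpd2, named for a glycolipid transfer domain, was at 3.02, 3.96 and 4.24 CPM and 0.159, 0.185, 0.0688, 0.243 and 0 CPM (log2 fold change -2.06, SE 0.14, adjusted p = 5.70e-06). AA467197 was at 29.4, 66.8 and 53.2 CPM in the controls and 5.33, 8.84, 10, 10.4 and 10.3 CPM in the DKO libraries (log2 fold change -2.30, SE 0.25, adjusted p = 1.20e-04). By loss of mean CPM rather than by fold, abundant genes led: Oat, the mitochondrial ornithine aminotransferase, fell from a control mean of 1385 ± 87.1 CPM (SD, n = 3) to 987 ± 105 CPM (SD, n = 5; log2 fold change -0.49, SE 0.09, adjusted p = 0.00347). Prap1, a secreted proline-rich protein of the gut, went from 789 ± 88.3 to 492 ± 64.7 CPM (log2 fold change -0.68, SE 0.10, adjusted p = 0.00119).

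Rises were fewer than falls. Scd1, the desaturase that makes monounsaturated fatty acids, was at 1.47, 1.49 and 0.706 CPM in the controls and at 31.3, 12.2, 18.4, 9.51 and 19.4 CPM in the DKO libraries, a 14.9-fold higher mean (log2 fold change 3.02, SE 0.29, adjusted p = 6.16e-05). DKO 1 held the highest and DKO 4 the lowest Scd1 level, yet all 5 stood far above the controls. Popdc3, a Popeye-domain membrane protein, was at 0.302, 0.229 and 0.303 CPM in the controls and at 8.76, 6.99, 8.80, 6.84 and 8.18 CPM in the DKO libraries (log2 fold change 2.80, SE 0.12, adjusted p = 1.67e-07). Its DKO values were far tighter than those of Scd1. Slco5a1, of the organic anion transporter family, was at 0.863, 0.631 and 0.202 CPM and 7.01, 5.25, 4.26, 4.85 and 8.24 CPM (log2 fold change 2.14, SE 0.20, adjusted p = 4.87e-05). Amotl1, an angiomotin that binds the Hippo effector YAP, was at 0.388, 0.229 and 0.202 CPM and 4.46, 5.01, 5.71, 2.77 and 4.81 CPM (log2 fold change 2.10, SE 0.18, adjusted p = 2.44e-05). The zinc finger transcription factor Zbtb16 spread widely over the DKO libraries, from 13.3 CPM in DKO 2 to 58.7 CPM in DKO 3, against 7.59, 5.67 and 4.54 CPM in the controls (log2 fold change 2.07, SE 0.36, adjusted p = 0.00292). The remaining large rises among non-overlapping genes were Dcaf12l1, Nrep, Slfn5, BC064078, C730036E19Rik, Klri1, Gbp2, Iigp1 and Mt2. Their log2 fold changes ran from 1.48 for Klri1 to 2.12 for Iigp1. The level of BC064078 in DKO was 4.04-fold that of the controls (log2 fold change 1.86, SE 0.11, adjusted p = 2.25e-06). Nrep was at 1.6, 1.03 and 1.11 CPM in the controls and at 6.29, 5.13, 6.05, 5.39 and 6.80 CPM in the DKO libraries (log2 fold change 1.63, SE 0.13, adjusted p = 2.29e-05).

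By gain of mean CPM, the brush border starch enzyme Mgam led, at 2796, 2973 and 3512 CPM in the controls and 4307, 4805, 4163, 4327 and 4655 CPM in the DKO libraries (log2 fold change 0.53, SE 0.09, adjusted p = 0.00346). Ivns1abp, a Kelch-repeat protein, was at 1034, 868 and 881 CPM and 1333, 1137, 1511, 1327 and 1497 CPM (log2 fold change 0.55, SE 0.10, adjusted p = 0.00306). For these abundant genes a difference well under 1 on the log2 scale was still a large change in CPM, and no DKO library overlapped a control.

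**Figure D2:**
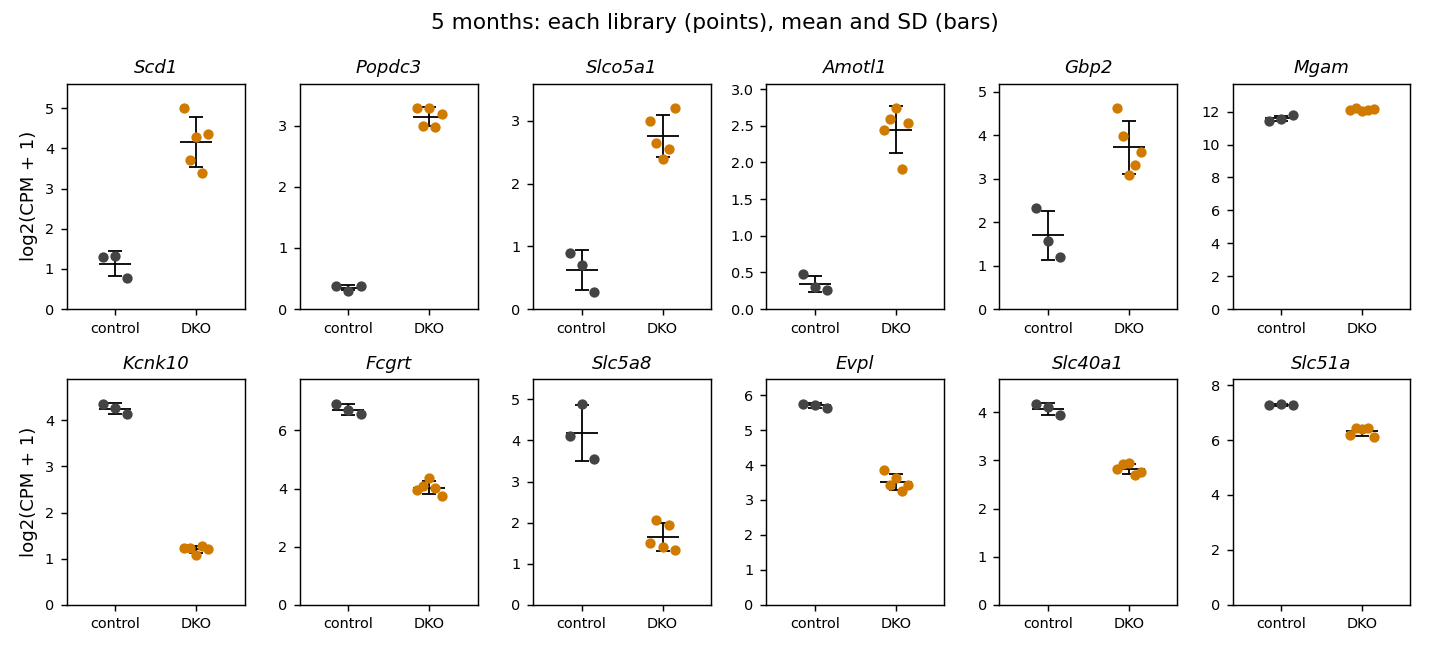
Levels of 12 named genes at 5 months on the log2(CPM + 1) axis, with 1 panel a gene; points are single libraries (3 control, 5 DKO) and bars are the mean and SD. The groups do not overlap in any of the 12 panels, while the distance between them runs from 0.53 for Mgam to -3.05 for Kcnk10 on the log2 scale. Genes taken as largest rises or falls were chosen without overlap, so their separation follows from that rule.

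Around Scd1, lipid synthesis genes were called in both directions. Of 21 tested genes of fatty acid synthesis and desaturation, 5 were higher and 4 lower, against 5.74% and 8.94% of all genes. Their median log2 fold change was -0.11, against a median near 0 over all genes tested. Fads1, which adds a double bond to polyunsaturated fatty acids, was at 79.5, 69.8 and 76.5 CPM in the controls and 42.0, 44.6, 43.5, 35.9 and 43.9 CPM in the DKO libraries (log2 fold change -0.83, SE 0.08, adjusted p = 4.83e-05). Its neighbour in that pathway, Fads2, was also lower (log2 fold change -0.43, SE 0.08, adjusted p = 0.00346), as was Me1, the malic enzyme that supplies NADPH (log2 fold change -1.01, SE 0.13, adjusted p = 3.84e-04). The 5 higher members became 3 without DKO 1, DKO 3 or DKO 5, 2 without control 2 and 1 without control 3. The lower count was stable under the same omissions.

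In fatty acid oxidation 3 of 26 tested genes were higher and 5 lower (median -0.03), against 5.74% and 8.94% of all genes. The lower ones were led by Cyp4a10, an omega-hydroxylase and known target of PPAR-alpha, at 4.79, 4.53 and 5.35 CPM in the controls and 1.27, 1.11, 0.550, 1.21 and 0.842 CPM in the DKO libraries (log2 fold change -1.57, SE 0.15, adjusted p = 4.98e-05). The peroxisomal enzymes Acaa1b (log2 fold change -1.55, SE 0.26, adjusted p = 0.00247) and Ehhadh (log2 fold change -0.38, SE 0.06, adjusted p = 0.00188) followed. Acaa1b varied over the DKO libraries from 3.83 to 12.7 CPM, Ehhadh only from 152 to 173 CPM. The higher members became 1 without DKO 4 or DKO 5 and 0 without control 3. The lower ones became 3 without DKO 2, DKO 3, DKO 4, DKO 5 or control 2. In fat absorption and lipoprotein assembly, 2 of 27 were higher and 5 lower, against the same shares of all genes. Dgat1, which completes triglycerides, was higher by a small margin (log2 fold change 0.27, SE 0.06, adjusted p = 0.00902), and Agpat2, which acts at an earlier step, was lower (log2 fold change -0.55, SE 0.06, adjusted p = 1.26e-04). Those 2 higher members became 5 without control 2 and 1 without DKO 4, DKO 5 or control 1, and the 5 lower ones 3 without DKO 2, DKO 3 or DKO 4 and 2 without control 2 or control 3. With edgeR's robust prior these counts were 1 and 3.

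In sugar uptake and metabolism 6 of 24 tested genes were lower and 1 higher, against 8.94% and 5.74% of all genes. Even so, the median over the list was above 0 (0.07). Pklr, the pyruvate kinase of liver and gut, was at 321, 392 and 379 CPM in the controls and 194, 237, 222, 229.7 and 219.8 CPM in the DKO libraries (log2 fold change -0.72, SE 0.08, adjusted p = 1.26e-04). Phosphofructokinase Pfkl, which drives glycolysis forward, fell too (log2 fold change -0.51, SE 0.07, adjusted p = 9.48e-04). The fructose bisphosphatases, which run the opposite step, moved the same way: Fbp1 by -0.80 (SE 0.16) and Fbp2 by -0.40 (SE 0.06), with adjusted p of 0.00718 and 0.00161. The 1 higher member became 2 without DKO 2 or control 2 and 0 without DKO 5, control 1 or control 3, and 2 with limma's robust prior or no filter on low values and 0 with edgeR's robust prior.

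Among solute carriers for monocarboxylates, organic ions and nucleosides, 9 of 28 tested were lower and 3 higher, against 8.94% and 5.74% of all genes. Beside Slc5a8, the lower ones included the lactate and butyrate carrier Slc16a1 (log2 fold change -0.31, SE 0.06, adjusted p = 0.00454), the nucleoside carrier Slc29a1 (log2 fold change -0.65, SE 0.11, adjusted p = 0.00237) and the riboflavin carrier Slc52a3 (log2 fold change -0.53, SE 0.10, adjusted p = 0.00563). The 3 higher members, Slco5a1 among them, became 1 with robust priors in limma or edgeR. Of 21 amino acid and peptide carriers, 3 were lower and 1 higher, against the same shares of all genes. Slc6a20a, a proline carrier of the brush border, was at 143, 180.0 and 154 CPM in the controls and 85.7, 57.7, 78.1, 58.7 and 82.6 CPM in the DKO libraries (log2 fold change -1.13, SE 0.13, adjusted p = 1.99e-04). The glutamine carrier Slc38a1 was also lower (log2 fold change -0.71, SE 0.09, adjusted p = 4.82e-04), and Slc7a15 was the higher member (log2 fold change 0.68, SE 0.13, adjusted p = 0.00459). Without control 2 there were 2 higher members.

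Of 27 tested ion and water channels, 7 were lower and 4 higher, against 8.94% and 5.74% of all genes. The chloride channel Clcn2 rose a little but evenly, from 198, 222 and 214 CPM to 269, 278, 262, 261 and 258 CPM (log2 fold change 0.33, SE 0.05, adjusted p = 0.00158). Trpm6, the magnesium channel of the intestine, was higher as well (log2 fold change 0.55, SE 0.12, adjusted p = 0.00902). The higher count became 2 without DKO 5, control 1 or control 3. Of 26 tested genes in a list of exchangers, pumps and related genes, 3 were lower and 3 higher, against the same shares of all genes. The lower S100g and Pdzk1 and the higher Guca2b are neither exchangers nor pumps. The higher count of this list became 1 without control 1, 5 with limma's robust prior and 6 in DESeq2. The sodium/proton exchanger Slc9a2 (log2 fold change -0.43, SE 0.08, adjusted p = 0.00294) and the apical scaffold Pdzk1 (log2 fold change -0.46, SE 0.10, adjusted p = 0.00989) were among the lower.

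The brush border list holds hydrolases and the cadherins Cdhr2 and Cdhr5. Of its 23 tested genes 5 were lower, Cdhr2 among them, and 3 higher, against 8.94% and 5.74% of all genes. Treh, which cleaves trehalose, fell from 252, 418 and 343 CPM to 216, 159.6, 213, 177 and 207 CPM (log2 fold change -0.77, SE 0.14, adjusted p = 0.00396), as Mgam rose. Enpp7, the alkaline sphingomyelinase, was at 147, 322 and 228 CPM in the controls and 549, 472, 313, 453 and 479.9 CPM in the DKO libraries, so DKO 3 lay below control 2 (log2 fold change 1.01, SE 0.22, adjusted p = 0.00922). With robust priors Enpp7 was not called (adjusted p = 0.0717 in limma and 0.0967 in edgeR). The 5 lower members of this list became 8 without control 1 and 3 without DKO 1, DKO 4, DKO 5, control 2 or control 3, and 2 with edgeR's robust prior. Lrat, which esterifies retinol for storage and chylomicron export, was lower in every DKO library (log2 fold change -0.67, SE 0.08, adjusted p = 1.65e-04).

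Bile acid handling had 3 of 9 tested genes lower and 1 higher, against 8.94% and 5.74% of all genes. Slc51a, the alpha subunit of the basolateral bile acid exporter, was at 152, 159.7 and 152 CPM in the controls and 72.5, 86.2, 83.3, 86.7 and 67.9 CPM in the DKO libraries (log2 fold change -0.96, SE 0.08, adjusted p = 2.44e-05). Its partner subunit Slc51b was at 28.6, 36.9 and 37.2 CPM and 20.8, 25.5, 19.9, 29.2 and 21.2 CPM, with DKO 4 above control 1 (log2 fold change -0.54, SE 0.13, adjusted p = 0.0156). The call of Slc51b was lost without control 2 (adjusted p = 0.0587) and without control 3 (0.0821). Abcc3, another basolateral exporter of bile acid conjugates, was lower in all 5 DKO libraries (log2 fold change -0.75, SE 0.08, adjusted p = 9.61e-05). Cyp27a1, which hydroxylates the sterol side chain, went the other way, from 68.8, 81.6 and 68.9 CPM to 169, 126, 219.9, 169 and 171 CPM (log2 fold change 1.20, SE 0.13, adjusted p = 1.50e-04). No further member was called.

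Of 23 tested genes of iron, zinc and copper handling, 10 (against 8.94% of all genes) were lower and 2 higher (median -0.18). Ferroportin, Slc40a1, the only known cellular iron exporter, was at 17.2, 16.3 and 14.3 CPM in the controls and 6.05, 6.61, 6.67, 5.53 and 5.77 CPM in the DKO libraries (log2 fold change -1.25, SE 0.10, adjusted p = 2.44e-05). Both copper pumps fell, Atp7a from 54.1, 52.3 and 56.3 CPM to 34.2, 36.4, 34.1, 36.7 and 33.4 CPM (log2 fold change -0.62, SE 0.06, adjusted p = 5.82e-05) and Atp7b by 0.60 on the log2 scale (SE 0.08, adjusted p = 3.30e-04). The zinc exporter Slc30a1 was lower (log2 fold change -0.47, SE 0.09, adjusted p = 0.00450), as were the importers Slc39a5 and Slc39a14, the iron reductase Cybrd1, the iron importer Slc11a2 and the transferrin receptor Tfrc. The 2 higher members were the metal-binding metallothioneins. Mt2 was at 54.9, 17.3 and 22.4 CPM in the controls and 94.2, 68.5, 70.7, 84.2 and 84.9 CPM in the DKO libraries (log2 fold change 1.49, SE 0.27, adjusted p = 0.00372), and Mt1 at 104, 55.0 and 77.7 CPM and 133, 106, 113, 138 and 128 CPM (log2 fold change 0.68, SE 0.16, adjusted p = 0.0136). Control 1 was the highest control for both. Neither was called by edgeR with a robust prior (adjusted p = 0.0638 for Mt2 and 0.0581 for Mt1), and Mt1 also not by limma with one (0.0669). The 10 lower members became 6 without DKO 1 or DKO 2 and 5 without control 3. Slc40a1, Atp7a, Atp7b and Slc30a1 kept their calls in every setting, so the calls lost were among the other lower members.

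Detoxification had 9 of 43 tested genes lower and 5 higher, against 8.94% and 5.74% of all genes. Ugt2b5, a glucuronosyltransferase, was at 16.0, 18.6 and 20.8 CPM in the controls and 7.09, 3.09, 6.46, 4.32 and 6.13 CPM in the DKO libraries (log2 fold change -1.64, SE 0.20, adjusted p = 2.84e-04). The cytochrome Cyp2s1 (log2 fold change -0.76, SE 0.06, adjusted p = 2.49e-05) and the quinone reductase Nqo1 (log2 fold change -0.62, SE 0.08, adjusted p = 3.97e-04) were lower too. Gstp1 changed by less, between groups of closely matched libraries, with controls at 146, 144 and 145 CPM and DKO libraries at 113, 104, 118, 113 and 113 CPM (log2 fold change -0.37, SE 0.05, adjusted p = 6.07e-04). The carboxylesterase Ces1f (log2 fold change 0.52, SE 0.09, adjusted p = 0.00245) and the microsomal transferase Mgst1 (log2 fold change 0.49, SE 0.09, adjusted p = 0.00308) were higher. The lower count became 5 without control 2. The higher count became 3 without DKO 1, DKO 3, DKO 4, DKO 5 or control 1 and 2 without control 3, and 3 in edgeR with RLE scaling. Several of these enzymes have near-identical relatives in the mouse genome, and the labels do not say how reads shared between copies were counted, so their values are less certain.

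In the list of desmosome, envoplakin and keratin genes 6 of 20 tested were lower and 1 higher (median -0.06), against 8.94% and 5.74% of all genes. Evpl, envoplakin, which ties desmosomes to keratin filaments, was at 53.1, 51.5 and 48.7 CPM in the controls and 13.4, 9.83, 11.4, 8.49 and 9.74 CPM in the DKO libraries (log2 fold change -2.19, SE 0.12, adjusted p = 1.07e-06). Its binding partner periplakin, Ppl, was at 23.7, 19.1 and 17.4 CPM and 11.9, 9.95, 9.56, 8.93 and 9.86 CPM (log2 fold change -0.93, SE 0.12, adjusted p = 3.40e-04). Plakophilin Pkp1 was at 68.7, 58.5 and 66.9 CPM and 28.3, 30.6, 26.6, 24.2 and 31.6 CPM (log2 fold change -1.17, SE 0.09, adjusted p = 1.72e-05), and the simple keratin Krt7 was lower by less (log2 fold change -0.39, SE 0.08, adjusted p = 0.00706). The other plakophilin called, Pkp3, was higher by 0.20 on the log2 scale (SE 0.04, adjusted p = 0.0105). Without control 1, or in DESeq2, there were 2 higher members. Of 25 genes of tight and adherens junctions, 5 were lower (3 without control 3) and 1, Popdc3, was higher, against the same shares of all genes. Nectin1, an adherens junction adhesion molecule (log2 fold change -0.63, SE 0.10, adjusted p = 0.00153), and Cldn2, a claudin that forms sodium and water pores (log2 fold change -0.48, SE 0.10, adjusted p = 0.00652), were lower.

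The Hippo list holds pathway members and targets of YAP, and its median log2 fold change was 0.03. Of its 24 tested genes 1, Cyr61, was lower and 5 were higher, against 8.94% and 5.74% of all genes. Beside Amotl1, these included Clu, clusterin, at 1.77, 0.745 and 0.403 CPM in the controls and 3.74, 4.27, 2.41, 4.41 and 3.43 CPM in the DKO libraries (log2 fold change 1.28, SE 0.22, adjusted p = 0.00253). The higher count became 3 without any 1 of DKO 1, DKO 2, DKO 4, DKO 5, control 1 or control 3. The 1 lower member became 2 without control 2 and 0 without DKO 3, DKO 4, DKO 5, control 1 or control 3, and 0 in edgeR with TMM or RLE scaling, with a filter at 2 CPM in 3 libraries or with a pseudocount of 0.5.

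**Figure D3:**
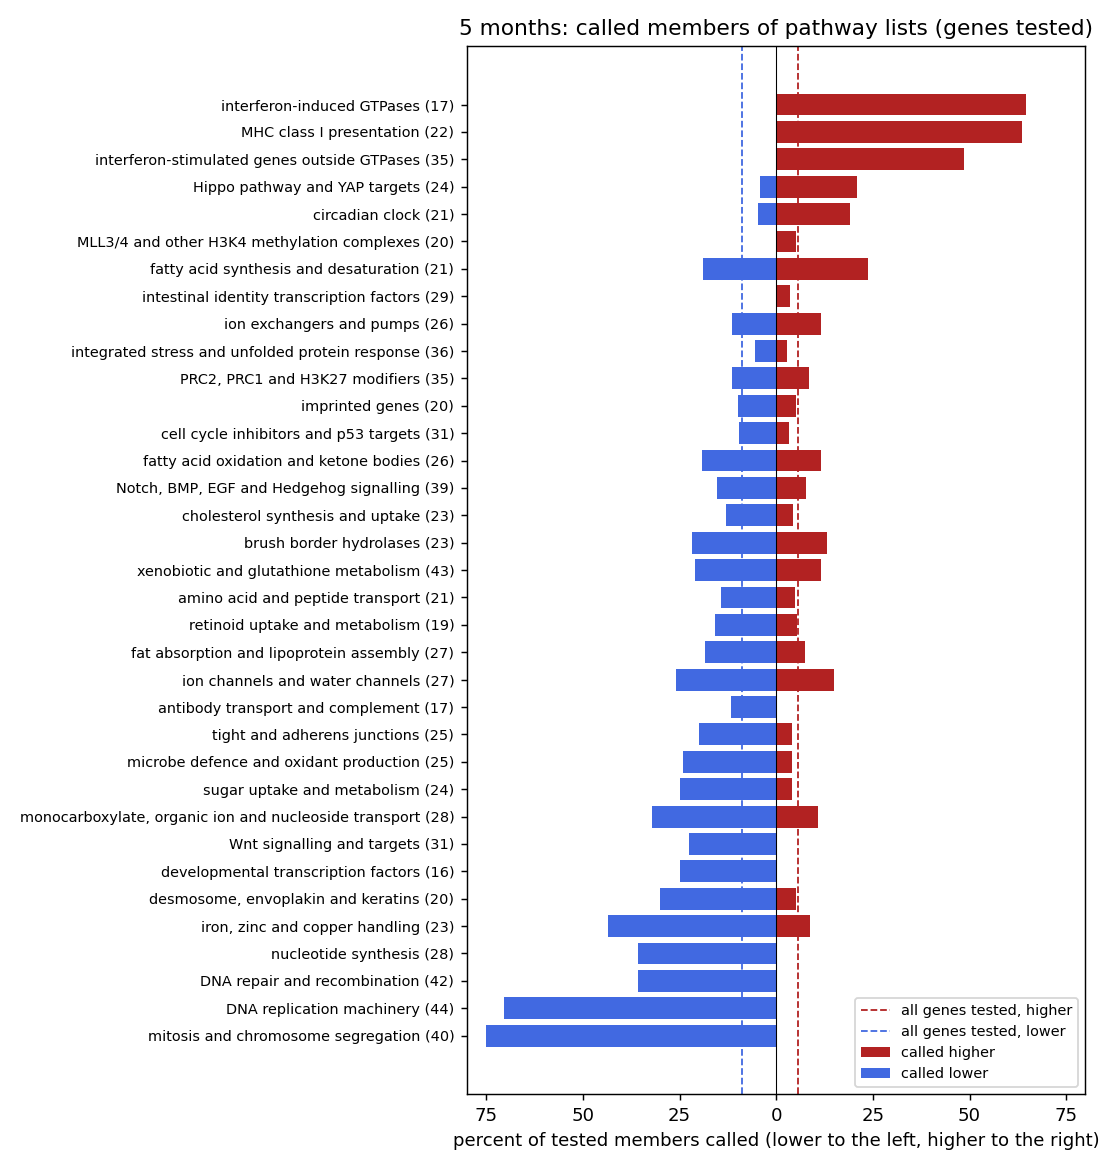
Percent of tested members called lower (blue, to the left) and higher (red, to the right) at 5 months for the pathway lists with 15 or more genes tested, the number tested in brackets; dashed lines mark the percent over all genes tested, 8.94% lower and 5.74% higher. Interferon and MHC class I lists reach farthest to the right, mitosis and DNA replication farthest to the left, and most metabolic lists hold calls in both directions.

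Interferon-response and antigen-presentation genes were called higher far more often than all genes, and no tested member of the 4 lists was called lower. Interferons act through STAT and IRF factors that bind promoter elements with repeated GAAA, and epithelial targets include guanylate-binding proteins (GBPs) and immunity-related GTPases, which attack vacuoles holding microbes, and the Oas enzymes, which sense viral RNA. The promoters below, from RefSeq on build GRCm38.p6, belong to 4 genes that rose in DKO, picked because their windows hold such an element, and show where it lies. Each runs 5′ to 3′ over the 140 bases before the annotated start, and capitals mark every GAAANNGAAA on either strand, read as TTTCNNTTTC on the other.
Gbp2: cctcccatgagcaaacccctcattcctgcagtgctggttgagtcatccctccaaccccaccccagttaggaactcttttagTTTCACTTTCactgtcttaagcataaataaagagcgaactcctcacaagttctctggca
Gbp3: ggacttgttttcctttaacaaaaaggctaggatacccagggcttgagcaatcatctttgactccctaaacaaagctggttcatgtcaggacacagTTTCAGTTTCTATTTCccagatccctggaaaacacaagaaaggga
Oas3: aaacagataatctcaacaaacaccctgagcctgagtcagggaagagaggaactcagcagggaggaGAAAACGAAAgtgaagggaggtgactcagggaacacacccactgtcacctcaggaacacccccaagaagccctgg
Ifit1: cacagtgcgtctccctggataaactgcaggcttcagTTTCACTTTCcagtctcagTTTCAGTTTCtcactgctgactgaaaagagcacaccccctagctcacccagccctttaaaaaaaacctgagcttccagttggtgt
The Gbp2 window is chr3:142620523-142620662 (+ strand) and has 1 copy that begins 59 bases before the start. The Gbp3 window is chr3:142559904-142560043 (+ strand) and has 2 overlapping copies, from 45 and 39 bases before the start. The Oas3 window is chr5:120777660-120777799 (- strand) with 1 copy from 75 bases before the start, and the Ifit1 window is chr19:34640749-34640888 (+ strand) with 2 copies, from 104 and 85 bases before. Over all 27025 RefSeq windows of 300 bases, 943 (3.49%) hold the motif. A count over whole lists is void, because only 11 of the 17 tested GTPase genes have an entry in that table. Genes called higher whose windows hold no copy include Oasl2, H2-K1, H2-D1 and H2-Q4. A match describes the sequence and was not tested as a cause of the rise.

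Of 17 tested interferon-induced GTPase genes 11 were called higher (median log2 fold change 1.0), against 5.74% of all genes. Gbp2 was at 3.97, 1.95 and 1.31 CPM in the controls and 23.7, 14.8, 7.43, 8.98 and 11.3 CPM in the DKO libraries (log2 fold change 2.03, SE 0.32, adjusted p = 0.00167). Gbp3 was at 2.85, 2.12 and 2.32 CPM and 9.71, 7.54, 5.23, 5.43 and 8.06 CPM (log2 fold change 1.23, SE 0.18, adjusted p = 9.11e-04). Every DKO library exceeded every control for both genes, and 89.2% of all genes called higher did not overlap either. Iigp1, an immunity-related GTPase, spread most, with controls at 1.42, 0.860 and 0.504 CPM and DKO libraries at 29.0, 7.42, 1.65, 4.41 and 9.56 CPM (log2 fold change 2.12, SE 0.57, adjusted p = 0.0260). DKO 3 was barely above control 1, and DKO 1 was 17.6-fold above DKO 3. The call of Iigp1 was lost without control 2 (adjusted p = 0.0688), control 3 (0.107) or DKO 5 (0.0593), with a pseudocount of 5 (0.0710), and with robust priors in limma (0.132) or edgeR (0.117). The median of the 17 genes above the control mean was 1.65 in DKO 1, 1.14 in DKO 2, 0.49 in DKO 3, 0.88 in DKO 4 and 1.09 in DKO 5, and DKO 1 was the highest DKO library for 12 genes and DKO 3 the lowest for 12. The controls also differed, from -0.41 in control 3 to 0.39 in control 1. The 11 calls became 5 without DKO 5 or control 2 and 2 without control 3, and 4 and 3 with robust priors in limma and edgeR.

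**Figure D4:**
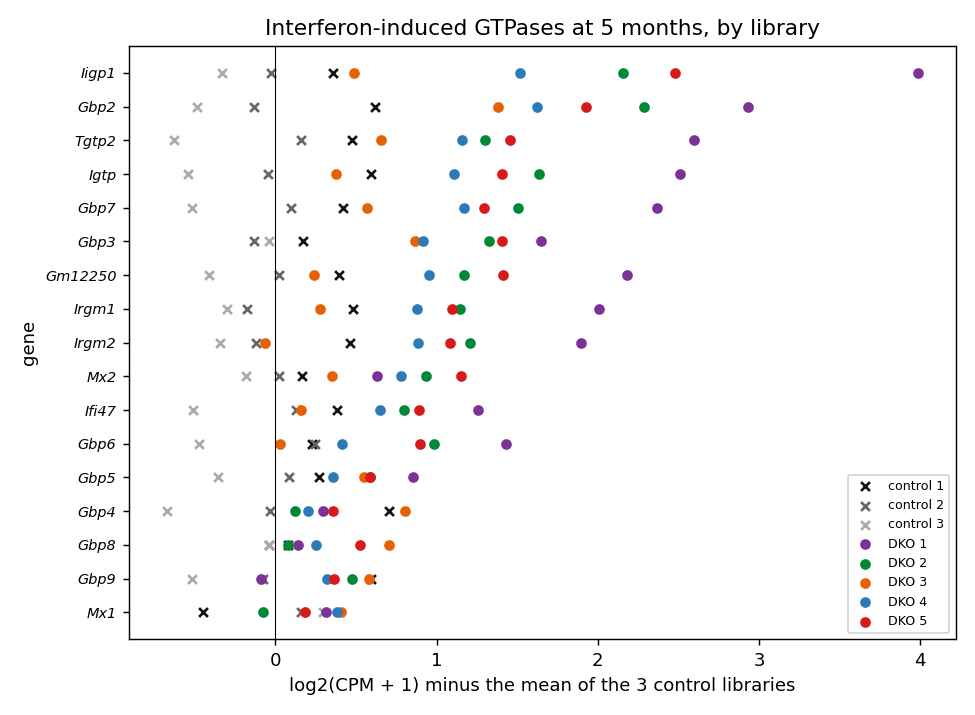
Level of the 17 tested interferon-induced GTPase genes in each library as log2(CPM + 1) minus the mean of the 3 controls (horizontal axis), with controls as crosses and DKO libraries as coloured points. DKO 1 lies highest for 12 genes and DKO 3 lowest for 12, and for the bottom genes of the plot (Gbp4, Gbp8, Gbp9, Mx1) the groups overlap.

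Of 35 tested interferon-stimulated genes outside the GTPases 17 were higher (median 0.34), against 5.74% of all genes. Oas3 was at 38.9, 56.6 and 40.9 CPM in the controls and 89.1, 97.9, 78.0, 89.7 and 95.6 CPM in the DKO libraries (log2 fold change 0.99, SE 0.11, adjusted p = 1.60e-04). Its relative Oasl2 (log2 fold change 0.81, SE 0.10, adjusted p = 2.37e-04), the RNA-binding Ifit1 (log2 fold change 0.77, SE 0.09, adjusted p = 2.41e-04) and the virion tether Bst2 (log2 fold change 0.93, SE 0.10, adjusted p = 1.53e-04) were also higher. DKO 3 again held the lowest DKO value of all 4 genes, and it still exceeded every control. Leaving out any 1 library, other scalings, filters, pseudocounts or priors did not move the count of this list by more than 1.5 times. For MHC class I presentation 14 of 22 tested genes were higher (median 0.25). The heavy chain H2-K1 was at 1532, 1927 and 1663 CPM in the controls and 2670.3, 2393, 2471, 2519 and 2640.5 CPM in the DKO libraries (log2 fold change 0.58, SE 0.08, adjusted p = 8.74e-04). H2-Q4 (log2 fold change 0.59, SE 0.06, adjusted p = 9.94e-05), H2-D1 (log2 fold change 0.49, SE 0.07, adjusted p = 7.26e-04) and the peptide transporter Tap2 (log2 fold change 0.56, SE 0.06, adjusted p = 1.48e-04) did the same. The class I count became 9 without control 3, and 1 class I gene was called lower without control 1. For MHC class II 6 of 10 were higher (median 0.28), with H2-Ab1 at 629, 812 and 659 CPM in the controls and 1042, 929.6, 861, 1027 and 1016 CPM in the DKO libraries (log2 fold change 0.48, SE 0.09, adjusted p = 0.00442). The class II count became 3 without control 1 and 2 without control 3. With the replicate number of the labels fitted as a block, the class I count was 7 and the class II count 0. H2 and GBP genes have close copies, so reads may have been split between them.

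Immune cells express these genes too, and their markers were present. The summed level of the immune cell list was 365 to 750 CPM in the controls and 474 to 1084 CPM in the DKO libraries. Of its 23 tested members 2 were higher (Itgam and Tyrobp), a share near the 5.74% of all genes, and none was lower. Their median log2 fold change was 0.27. The higher count became 1 without DKO 3 or control 3 and 0 without control 2. DKO 3, lowest in most GTPase genes, held the highest immune sum. Ptprc was at 33.0 to 66.9 CPM in the controls and 41.1 to 101 CPM in the DKO libraries, and Cd8a at 32.3 to 73.0 and 41.6 to 116 CPM. The B-cell gene Cd79a did not pass the filter. Stromal and vessel genes summed to 30.1 to 34.3 CPM in the controls and 32.2 to 53.1 CPM in the DKO libraries. The part of immune cells in the interferon and MHC values was not tested. In bulk RNA, a change in the number of cells of a type and a change in RNA per cell cannot be told apart.

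Of 25 tested epithelial defence genes outside the interferon response, 6 were lower and 1 higher, against 8.94% and 5.74% of all genes. Reg1, a secreted lectin, was at 252, 272 and 315 CPM in the controls and 114, 144, 198, 123 and 156 CPM in the DKO libraries (log2 fold change -0.94, SE 0.15, adjusted p = 0.00145). Nox1, the superoxide-producing oxidase, was lower (log2 fold change -0.83, SE 0.18, adjusted p = 0.00860). Nos2, the inducible nitric oxide synthase, had controls spread over 36.0, 65.9 and 102 CPM and DKO libraries at 18.9, 26.5, 8.73, 26.5 and 24.2 CPM (log2 fold change -1.62, SE 0.35, adjusted p = 0.0101). Nos2 was not called without control 3 (adjusted p = 0.0589) or with robust priors (0.0789 in limma, 0.0622 in edgeR). The cytokine Il18 was the higher member (log2 fold change 0.41, SE 0.09, adjusted p = 0.0122). The lower count became 3 without control 3, and the higher one 3 without control 1 and 2 without DKO 2 or DKO 3, 4 in DESeq2 and 2 with TMM-scaled CPM. Paneth cells supply much of the crypt's defence, and their listed products summed to 8414 to 9410 CPM in the controls and 2722 to 8451 CPM in the DKO libraries, 11 of 19 being lower and 1 higher, a lower count that became 4 with robust priors. The 1 higher member was not called without DKO 1, DKO 3 or DKO 5, or with edgeR's robust prior. Their part in these values was not tested.

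Genes that copy and divide the genome were lower by similar, modest amounts. Of 44 tested genes of DNA replication 31 were lower and none higher (median -0.39), and of 40 of mitosis 30 were lower and none higher (median -0.36), against 8.94% of all genes. Top2a, the topoisomerase of dividing cells, was at 417, 348 and 392 CPM in the controls and 302, 289.9, 237, 256 and 292 CPM in the DKO libraries (log2 fold change -0.49, SE 0.08, adjusted p = 0.00294). The condensin subunit Smc2 was at 84.0, 73.1 and 81.4 CPM and 58.0, 53, 46.1, 53.1 and 58.6 CPM (log2 fold change -0.56, SE 0.08, adjusted p = 8.57e-04). Among replication genes the helicase component Cdc45 (log2 fold change -0.56, SE 0.09, adjusted p = 0.00132), the primase Prim1 (log2 fold change -0.55, SE 0.09, adjusted p = 0.00168) and the helicase subunit Mcm4 (log2 fold change -0.53, SE 0.09, adjusted p = 0.00215) were lower. The mitotic motor Kif11 (log2 fold change -0.44, SE 0.07, adjusted p = 0.00254) and the kinetochore protein Cenpf (log2 fold change -0.42, SE 0.07, adjusted p = 0.00168) changed by about as much. The groups did not overlap for any of these 7 genes, and the same held for 93.5% of all genes called lower. The counts depended on the controls: replication held 19 without control 1 and 13 without control 3, and mitosis 15 without control 1 and 12 without control 3. With the replicate number of the labels fitted as a block, replication held 3 and mitosis 5.

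DNA repair followed with 15 of 42 tested genes lower, against 8.94% of all genes, and none higher in limma (median -0.25). In edgeR, DESeq2 and limma on TMM-scaled CPM, 1 member each was called higher. The lower count became 9 without DKO 3, 8 without DKO 4, 5 without control 1 and 3 without control 3, and limma called 1 member higher without DKO 2 or control 1. In nucleotide synthesis 10 of 28 were lower, against the same share, and none higher. This count of 10 did not move by 1.5 times when any 1 library was left out. With the replicate number as a block, the lower counts were 0 for DNA repair and 5 for nucleotide synthesis. Mitochondrial one-carbon enzymes stood first, Mthfd1l at 17.3, 15.7 and 15.7 CPM in the controls and 7.96, 10.3, 9.28, 7.13 and 8.18 CPM in the DKO libraries (log2 fold change -0.86, SE 0.12, adjusted p = 5.76e-04) and Mthfd2 at 34.5, 31.5 and 39.3 CPM and 23.1, 25.5, 19.8, 23.5 and 20.7 CPM (log2 fold change -0.62, SE 0.10, adjusted p = 0.00157). Rrm2, a subunit of the enzyme that makes deoxyribonucleotides, was lower as well (log2 fold change -0.47, SE 0.08, adjusted p = 0.00196). Crypt base stem cell genes, which mark the dividing compartment's source, summed to 2753 to 3196 CPM in the controls and 2117 to 2414 CPM in the DKO libraries. How far fewer dividing cells enter these values was not tested.

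In the Wnt list 7 of 31 tested genes were lower (4 without control 3) and none higher, against 8.94% and 5.74% of all genes. Ccnd2, cyclin D2, was at 365, 411 and 482 CPM in the controls and 227, 186, 201, 245 and 245 CPM in the DKO libraries (log2 fold change -0.92, SE 0.10, adjusted p = 1.62e-04), and the crypt positioning receptor Ephb3 fell too (log2 fold change -0.61, SE 0.10, adjusted p = 0.00147). Of 39 genes of Notch, BMP, EGF and Hedgehog signalling 6 were lower and 3 higher, against the same shares of all genes. Ihh, the Hedgehog ligand that epithelium sends to the stroma, was at 78.9, 75.8 and 75.3 CPM and 53.3, 55.5, 46.1, 52.0 and 41.4 CPM (log2 fold change -0.62, SE 0.09, adjusted p = 7.08e-04). The receptor Notch1 (log2 fold change -0.52, SE 0.08, adjusted p = 0.00180), the Notch-modifying glycosyltransferase Rfng (log2 fold change -0.47, SE 0.08, adjusted p = 0.00177) and the ligand Bmp7 (log2 fold change -0.70, SE 0.13, adjusted p = 0.00502) were lower. The 3 higher members became 1 without DKO 1, DKO 4 or control 3, and 5 in DESeq2.

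Of 35 tested genes of PRC2, PRC1 and H3K27 modification, 4 were lower and 3 higher (20% called, against 14.7% of all genes). The lower count became 2 without DKO 5 or control 1 and 1 without control 3, and the higher one 1 without DKO 1, DKO 2, control 2 or control 3 and 0 without DKO 4 or DKO 5. Of 20 tested genes of H3K4 methylation complexes and H3K4 demethylases, 1 was higher, the demethylase Kdm5b, near the 5.74% of all genes. None was lower (2 without control 2). Of 16 tested developmental transcription factors 4 were lower (against 8.94% of all genes), which became 1 without control 3 and 2 with the filter at 2 CPM. None of these was higher in limma, while DESeq2, edgeR's robust prior and limma without control 2 each called 1. Rbbp7, a histone-binding subunit shared by Polycomb and deacetylase complexes, was lower by 0.31 (SE 0.05, adjusted p = 0.00278) and the H3K4 demethylase Kdm5b was higher by 0.32 (SE 0.06, adjusted p = 0.00432) on the log2 scale. Hox genes are textbook targets of Polycomb silencing, and of 37 listed only 6 passed the filter on low values and none was called. The transcription factor Pax8 was at 9.58, 15.1 and 12.5 CPM in the controls and 5.89, 3.96, 3.44, 3.83 and 5.11 CPM in the DKO libraries (log2 fold change -1.30, SE 0.17, adjusted p = 4.82e-04). Among imprinted and germline genes, the receptor Igf2r (log2 fold change -0.34, SE 0.06, adjusted p = 0.00193), Phlda2 (log2 fold change -0.78, SE 0.14, adjusted p = 0.00334) and the Piwi protein Piwil2 (log2 fold change -0.78, SE 0.13, adjusted p = 0.00277) were lower. Phlda2 and Piwil2 stayed under 2 CPM in every library. Kdelr3, a receptor that returns chaperones to the endoplasmic reticulum, was at 8.15, 10.5 and 12.4 CPM and 26.4, 23.7, 30.0, 28.8 and 23.7 CPM (log2 fold change 1.29, SE 0.13, adjusted p = 6.12e-05).

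The clock list had 4 of 21 tested genes higher (2 without control 1) and 1 lower, against 5.74% and 8.94% of all genes. Hlf, a PAR-domain transcription factor of the clock's output, was at 4.18, 6.82 and 8.17 CPM in the controls and 18.2, 15.4, 21.2, 15.3 and 15.8 CPM in the DKO libraries (log2 fold change 1.33, SE 0.17, adjusted p = 3.97e-04). Arntl, the core activator of the clock, was at 48.0, 40.2 and 36.2 CPM and 22.6, 25.5, 28.7, 29.3 and 29.9 CPM (log2 fold change -0.59, SE 0.11, adjusted p = 0.00396). Per1 spread from 12.9 CPM in DKO 2 to 65.3 CPM in DKO 5 and was not called. No label gives the time of day of collection, and its part in these values was not tested.

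A small set of genes varied far more between DKO libraries than the median SD of 0.11. Plcd3, a phospholipase C, was at 13.7, 17.1 and 15.3 CPM in the controls and 0.796, 1.48, 2.34, 26.1 and 1.5 CPM in the DKO libraries. It was thus low in 4 DKO libraries and above every control in DKO 4, and was not called (adjusted p = 0.0667) unless DKO 4 was left out (1.99e-05). Slc15a2, a peptide carrier, was at 21.2, 8.54 and 21.1 CPM and 0, 5.07, 0.0688, 13.2 and 3.85 CPM, again highest in DKO 4 (log2 fold change -2.30, SE 0.74, adjusted p = 0.0595), and was called without DKO 4 (adjusted p = 0.0144) or with a pseudocount of 5 (0.0378). The ribosomal protein gene Rpl29 was at 91.5, 81.6 and 1.92 CPM in the controls and 43.8, 1.92, 96.6, 42.2 and 42.7 CPM in the DKO libraries, with control 3 and DKO 2 near 1.92 CPM. Ribosomal protein genes have many near-identical copies, which makes such counts uncertain. The glucocorticoid-responsive kinase Sgk1 was at 85.2, 313 and 101 CPM and 215, 33.8, 146, 152 and 198 CPM, and the gluconeogenic enzyme Pck1 at 178, 795 and 286 CPM and 610.1, 116, 406, 328 and 553 CPM. Both were lowest in DKO 2 and highest in control 2. Sgk1, Pck1 and Rpl29 were not called.

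Set beside the 12 libraries of 7 days, which share no library with the 8 of 5 months, most changes had the same sign. At 7 days 394 of 13923 genes tested were higher (2.83%) and 1656 lower (11.9%). Of the 757 higher genes of 5 months that were tested at 7 days, 223 (29.5%) were called higher there and 90.6% had the same sign. Of the 1188 lower genes, 828 (69.7%) were called lower and 98.7% had the same sign, and no gene was called in opposite directions. Read the other way, 56.6% of the genes called higher and 50% of those called lower at 7 days were called in the same direction at 5 months. Kcnk10 changed by -2.98 at 7 days and -3.05 at 5 months, Evpl by -2.33 and -2.19, and Kdelr3 by 1.52 and 1.29. Scd1 was 0.63 at 7 days (adjusted p = 0.310) against 3.02 at 5 months, Slco5a1 0.44 (0.11) against 2.14, and Dcaf12l1 0.19 (0.574) against 1.77. In the other direction, Nos2 was 0.23 at 7 days and -1.62 at 5 months, and Reg1 -0.04 and -0.94.

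The difference between the times was tested directly in limma over 13186 genes, and 0 passed, with 615 at an unadjusted p under 0.05. The same test in edgeR also called 0. The lowest adjusted p, 0.0726, belonged to Slco5a1 (difference 1.70, SE 0.29) and Dcaf12l1 (1.58, SE 0.27). For Scd1 the limma difference was 2.39 (SE 0.58, adjusted p = 0.499). With a pseudocount of 5, 4 genes were called: Slco5a1, Dcaf12l1, Serpine2 and Nrep. Without DKO 2 of the 7-day set 2 genes were called, and without its control 5, 1 gene. The time after ablation and any difference in how each set of libraries was made cannot be told apart.

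**Figure D5:**
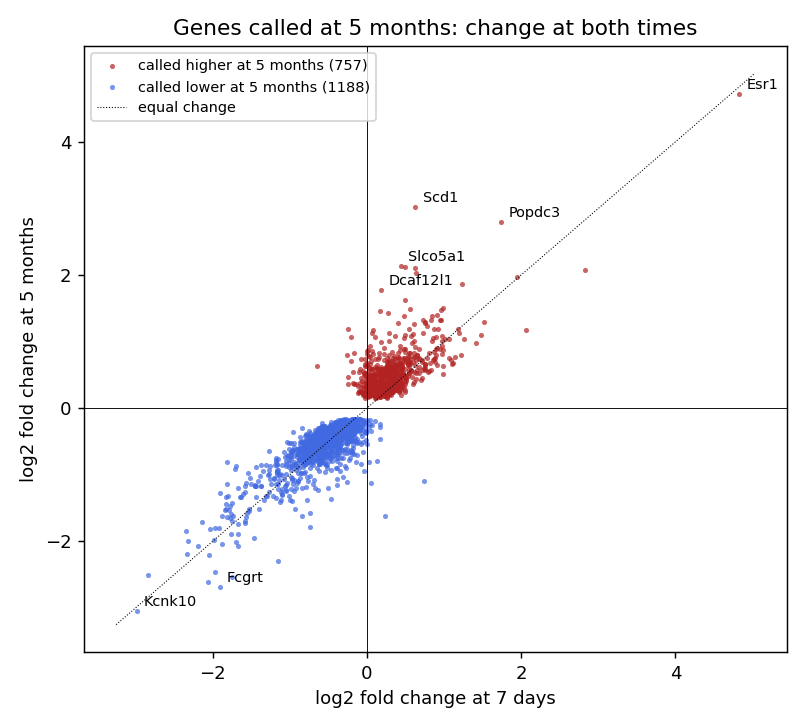
Log2 fold change at 5 months (vertical axis) against that at 7 days (horizontal axis) for genes called at 5 months and tested at both times, red where higher (757) and blue where lower (1188), with the dotted line at equal change. Most points share the sign of both axes, while Scd1, Slco5a1 and Dcaf12l1 lie well above the line and Kcnk10 on it.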

How the data were processed

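Poly(A) RNA of jejunal epithelial cells was sequenced, per the labels' protocols. STAR, featureCounts 1.6.2, DESeq2 and build mm9 are listed, with no role or order, in the submitters' processing notes. Use of strand is not given in those sources. The deposited tables hold CPM per gene and library made by the authors, with no gene lengths, so levels are not compared between genes. The same tables hold the log2 fold changes and the p-values of the authors' own comparison, deposited per the file headers. By the adjusted p of the authors' deposited table, genes higher numbered 878 and genes lower 1213, and 1848 of these 2091 calls were shared with limma. Dividing the deposited CPM by the value of 1 read gave whole reads for 100% of values (tolerance 0.01 reads), hence the depths and the counts on which edgeR called 826 genes higher and 1165 lower and DESeq2 878 and 1213. A further 16 columns of per-sample values match no library and were not used.

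Genes with 0.5 CPM or more in at least 3 of the 8 libraries were tested with limma 3.58.1 in R 4.3.3 (lmFit, and eBayes with a trend) on log2(CPM + 1), with Benjamini-Hochberg adjustment over all 13316 genes, and "called", "higher" or "lower" means an adjusted p under 0.05. Of 16195 genes, 2879 did not pass that filter. All 13 pairs of libraries within a group differed beyond sampling noise, with variances 6.49 to 26.4 times those of sampling, so each library was counted once. On counts of 13185 genes simulated from the means and depths of these libraries, 88% of 100 genes changed 1.5-fold and all of 100 changed 2-fold were recovered. None was in the wrong direction, and 13 unchanged genes were called. Every simulated gene had the same spread beyond sampling noise, and no gene of the lowest mean CPM was changed. Recovery was therefore not measured for genes of wide spread or low level. Alternatives were edgeR 4.0.16, DESeq2 1.42.0, other pseudocounts, filters and scalings, each library left out in turn, and, added after the data were seen, robust priors. The difference between times was fitted over all 20 libraries, each table keeping its own controls.

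The members and gene lists were chosen with earlier results of these data known, so lists are described by counts and medians with no test. The text names Kdm6a and Kdm6b, the 14 largest rises and falls by log2 fold change without overlap and at 2 CPM or more in the higher group, the 5 largest gains and losses in mean CPM (both leaving out Esr1 and lists of Paneth, goblet, enteroendocrine, tuft and stem cells), up to 4 called members of a list in each direction, the 10 genes of widest DKO spread at 5 CPM or more, and genes called for a difference between times. Single members with unstable calls were left out, or are given with the settings that end the call or that lower the count of their list. This does not cover the fit with the replicate number as a block, which ended the calls of 34 named genes. CpG content of promoters was not compared, because 77.5% of the higher and 79.7% of the lower genes had a RefSeq window, under the 80% that such a check needs.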

Additional observations from a re-analysis of the deposited data

Results flagged for a closer look

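Among the 125 genes whose fold change the text gives, 8 had 1 DKO library farther from the other 4 than Dixon's 95% criterion for 5 values (a gap over 0.71 of the range); chance flags about 1 in 20. In Plcd3, DKO 4 was at 26.1 CPM and the other DKO libraries at 0.796 to 2.34 CPM. In Iigp1, DKO 1 was at 29.0 CPM and the others at 1.65 to 9.56 CPM. DKO 1 also stood apart in Bmp7, at 7.48 CPM against 4.95 to 5.23 CPM, which was nearest to the controls, and in Atp7b, at 24.8 CPM against 28.9 to 30.4 CPM, which was farthest from them. DKO 3 was the lowest DKO library in H2-Q4 (126 CPM, others 140 to 143 CPM), Bst2 (15.2 CPM, others 18.6 to 19.8 CPM) and Kcnk10 (1.10 CPM, others 1.32 to 1.41 CPM). In Lrat, DKO 5 was at 36.0 CPM and the others at 30.2 to 30.5 CPM. In all but Plcd3 the library that stood apart was still on the same side of every control as the other 4.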

How the results depend on the processing

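The labels do not say whether their replicate numbers pair the libraries, and the main fit treated them as unpaired. Deviations of same-numbered control and DKO libraries correlated at -0.158, -0.230 and -0.240, and those of other pairs at -0.177 to 0.218. So few pairs cannot settle whether the numbers mark a pairing. With the number as a block, 167 genes were higher and 361 lower, and 514 of these 528 were among the unblocked calls. Many list counts fell with the block too. The text gives them only for DNA replication, mitosis, DNA repair, nucleotide synthesis and the MHC lists. Leaving out 1 library gave 367 to 751 higher and 661 to 1132 lower genes, and the lowest of each, 367 and 661, came without control 3, the shallowest library. Other scalings, filters, pseudocounts and tools gave 709 to 878 higher and 1118 to 1213 lower genes. For the difference between times the count of 0 became 4 with a pseudocount of 5, and leaving out a library gave 0 to 2 (2 without 7-day DKO 2, 1 without 7-day control 5). The calls of 123 named genes were followed through these settings, without those of members named only beside a list count. None of the 123 lost its call under DESeq2, edgeR without a robust prior, rescaled CPM or other filters. Some members with unstable calls had been left out of the text, so this follows in part from the choice. Of all 765 higher and 1190 lower calls, edgeR also called 716 and 1107, and DESeq2 728 and 1119. Among the 123, the call was lost by 5 with edgeR's robust prior, 4 with limma's, 1 with a pseudocount of 5 and 34 with the block. Without 1 library, 4 lost it without control 3, 2 without control 2 and 1 without DKO 5. No named value changed sign. With 3 controls, a gene that spreads as Iigp1 or Plcd3 does cannot be placed firmly, and control 3, with 9914738 reads, has the coarsest steps at low CPM.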

Other observations

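A further 3 genes at 5 CPM or more varied widely between DKO libraries and were not called. Cyp2c29, a cytochrome of xenobiotic metabolism, was at 6.82, 111 and 31.4 CPM in the controls and 13.9, 1.67, 19.3, 6.36 and 13.4 CPM in the DKO libraries. Cyp1a1, the classic target of the aryl hydrocarbon receptor, was at 1.9, 25.6 and 8.77 CPM in the controls and 4.94, 0.433, 5.23, 1.65 and 4.81 CPM in the DKO libraries. In both cytochromes control 2 was the highest of the 8 libraries and DKO 2 the lowest, and the groups overlapped. Akp3, an intestinal alkaline phosphatase, was at 16.7, 21.2 and 20.4 CPM in the controls and 8.28, 37.6, 57.8, 14.9 and 20.3 CPM in the DKO libraries, so the DKO libraries lay on both sides of the controls.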
